A study of Mus musculus with 6 samples.

Results

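The genes described here build the contacts that hold neighbouring cells together or let them exchange small molecules: the desmosome genes Dsc2, Dsg2, Dsp, Jup, Pkp2 and Pkp4, the classical cadherin genes Cdh1 and Cdh2, and the gap junction gene Gja1. They are 9 of 18193 genes with a probe set of their own on the arrays, and all probe sets annotated with 1 of these genes alone were taken, 27 of 45037 in all. The 9 genes were picked with the difference between the groups already known from the same arrays, so their values are given as a description without a test. Each value is a log2 expression value of a probe set, a group of short oligonucleotides summarised to 1 value. Probe sets whose names end in _s_at or _x_at, such as the single one of Jup and the brightest of Pkp2 and Gja1, can share sequence with other transcripts, and those ending in _a_at can read several transcripts of a gene.

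The arrays held RNA of sorted mouse bone marrow cells with Mn1 deleted by CRISPR-Cas9 (MLL-AF9/Mn1null, n = 3) or left as wild type (MLL-AF9/Mn1wt, n = 3), so the comparison asks which transcripts differ without Mn1, the gene of a transcriptional cofactor. All of them carried MLL-AF9, the fusion of a leukaemia, and an EGFP control vector, and grew in medium with mIL3, hIL6 and mSCF without further treatment. Neither the animals' age and strain nor the number of clones behind a group is stated. Since nothing states that the replicates are independent cultures or animals, the p-values cover the variation among these 6 samples alone, and this may be technical.

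Desmosomes are spot-like contacts in which cadherins of the desmocollin (Dsc) and desmoglein (Dsg) families bind their partners on the next cell, while plakoglobin (Jup) and plakophilins (Pkp) link the cadherin tails to desmoplakin (Dsp), which holds the intermediate filaments. Classical cadherins such as E-cadherin (Cdh1) and N-cadherin (Cdh2) form adherens junctions through catenins and actin. Gap junctions are channels of connexins, and Cx43 (Gja1) is the connexin best known from bone marrow stroma and haematopoietic cells. Desmosomes are typical of epithelia and heart muscle.

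Between Mn1null and Mn1wt cells the junction genes differed in both directions. Dsc2 was higher in Mn1null cells on both of its probe sets and Jup was higher on its single one, while Dsp, Pkp2, Pkp4 and Gja1 were lower. Dsg2, Cdh1 and Cdh2 overlapped between the groups on the probe set with the highest signal. Read by that probe set, 2 of the 9 genes had all 3 Mn1null values above all 3 Mn1wt values, against 23.8% of all 18193 genes, and 4 had all of them below, against 25.6% of all genes. A difference of at least 1 on the log2 scale was seen for 4 of the 9 genes, Dsc2, Dsp, Pkp2 and Gja1, against 4.95% of all genes. The median difference was -0.07 over the 9 genes and 0.00013 over all genes. These counts describe genes that were chosen on the same contrast.

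**Figure D1:**
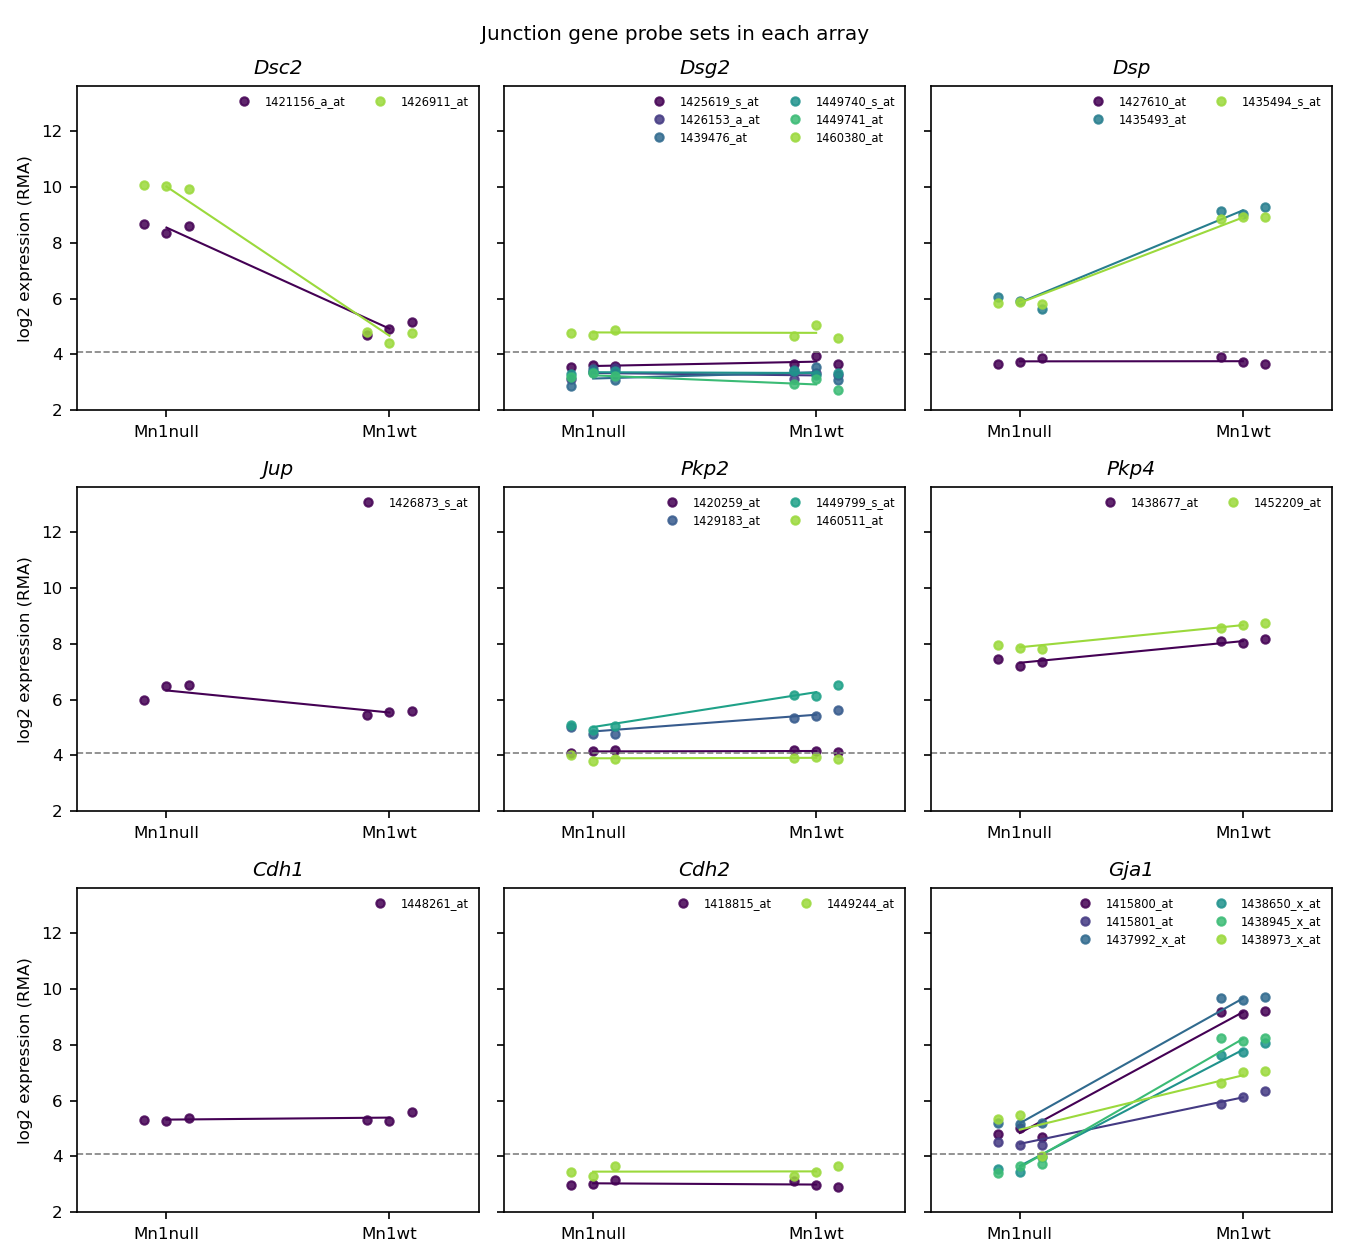
Log2 expression (vertical axis) of each probe set of the 9 junction genes in the 3 Mn1null arrays (left) and the 3 Mn1wt arrays (right); points are arrays, lines join group means, and the dashed line is the 30th percentile of all probe sets (4.07). Dsc2 lies higher in Mn1null, all 6 probe sets of Gja1 and 2 of 3 of Dsp lie lower, and the probe sets of Cdh2 lie under the dashed line in both groups.

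Of the 27 probe sets, 18 had a mean over the 6 arrays at or above the 30th percentile of all probe sets, a log2 value of 4.07 that is used below as a mark of low signal. The other 9 lay under it, and for Cdh2 that held for both probe sets. Over all 27 probe sets, 4 were higher in Mn1null without overlap, against 19.7% of all probe sets, 13 were lower without overlap, against 21.4%, and 10 overlapped. Of the 13, 6 belong to Gja1 alone. A difference of at least 1 was reached by 11 of the 27, against 3.62% of all probe sets.

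Dsc2, a desmosomal cadherin, had the largest difference among the 9 genes. On probe set 1426911_at the Mn1null arrays read 10.07, 10.04 and 9.90, against 4.82, 4.41 and 4.78 in the Mn1wt arrays. The groups lay far apart, and the Mn1wt values were close to the mark of low signal. The spread was 0.09 in Mn1null and 0.23 in Mn1wt (SD, n = 3 each), and the means differed by 5.34, or 40.4-fold on this scale, which compresses folds against a level close to background. It held rank 4 among the positive differences of the 18193 genes. The second probe set, 1421156_a_at, gave 8.68, 8.35 and 8.58 in Mn1null against 4.70, 4.90 and 5.17 in Mn1wt, a difference of 3.62. Both probe sets therefore put every Mn1null array above every Mn1wt array, by different amounts.

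Dsg2, the desmoglein that pairs with desmocollin 2 in simple epithelia and heart, overlapped between the groups where Dsc2 did not. Its brightest probe set, 1460380_at, read 4.78, 4.70 and 4.88 in Mn1null and 4.67, 5.06 and 4.59 in Mn1wt, with all 3 Mn1null values inside the range of the Mn1wt values. The difference was 0.02, and leaving out single arrays gave -0.08 to 0.16. The other 5 probe sets of Dsg2 lay under the mark of low signal. Of these, 1449741_at was higher in Mn1null (3.25 ± 0.07 against 2.93 ± 0.19 in Mn1wt, SD, n = 3 each) and 1425619_s_at was lower (3.59 ± 0.03 in Mn1null against 3.74 ± 0.17 in Mn1wt), so the probe sets of this gene disagreed in direction, and at these levels no order can be read.

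Dsp encodes desmoplakin, the plakin that ties the desmosomal plaque to intermediate filaments. Probe set 1435493_at read 6.05, 5.91 and 5.62 in Mn1null cells, against 9.13, 9.04 and 9.29 in Mn1wt cells. Probe set 1435494_s_at gave nearly the same picture, with 5.85, 5.89 and 5.80 in Mn1null and 8.84, 8.92 and 8.93 in Mn1wt. The groups did not overlap on either, and the differences were -3.29 and -3.05, which are 9.79-fold and 8.29-fold lower. The third probe set, 1427610_at, was at low signal in both groups (3.75 ± 0.10 in Mn1null and 3.76 ± 0.13 in Mn1wt, SD, n = 3 each). Desmoplakin and desmocollin 2, which share a structure in epithelia, thus had opposite differences on the same arrays.

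Jup encodes plakoglobin, an armadillo-repeat protein of both desmosomes and adherens junctions. Its only probe set, 1426873_s_at, read 5.99, 6.47 and 6.51 in Mn1null, against 5.46, 5.56 and 5.59 in Mn1wt. The groups did not overlap, and the first Mn1null array lay between the other Mn1null arrays and the Mn1wt arrays. The difference was 0.79, or 1.73-fold, and it ranged from 0.70 to 0.95 when single arrays were left out. No second probe set of this gene was there to compare it with.

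The plakophilins are armadillo proteins that cluster desmosomal cadherins. Pkp2, the plakophilin of simple epithelia and heart, read 5.11, 4.91 and 5.04 in Mn1null on 1449799_s_at, against 6.16, 6.11 and 6.52 in Mn1wt, a difference of -1.25. On 1429183_at the same gene gave 5.02, 4.77 and 4.78 in Mn1null and 5.32, 5.41 and 5.64 in Mn1wt, a difference of -0.60. Neither of these 2 probe sets overlapped between the groups, while 1420259_at (difference -0.01) and 1460511_at (difference -0.02) overlapped close to the mark of low signal.

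Pkp4, also called p0071, is a relative of the plakophilins that is found at adherens junctions and at desmosomes, and its signal lay well above the mark of low signal on every array. Probe set 1452209_at read 7.95, 7.85 and 7.81 in Mn1null, against 8.56, 8.67 and 8.75 in Mn1wt. Probe set 1438677_at read 7.44, 7.18 and 7.33 in Mn1null, against 8.09, 8.01 and 8.17 in Mn1wt. The differences of -0.79 and -0.77, about 1.73-fold and 1.71-fold lower, were nearly equal on the 2 probe sets, and neither overlapped.

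Gja1, the gene of Cx43, was lower in Mn1null on all 6 of its probe sets without overlap. The brightest, 1437992_x_at, read 5.21, 5.16 and 5.21 in Mn1null cells, against 9.66, 9.59 and 9.70 in Mn1wt cells. Its difference of -4.46 corresponds to a level 22-fold lower and held rank 11 among the negative differences of all genes. Probe set 1415800_at, whose name carries no tag for shared sequence, gave 4.79, 5.03 and 4.70 in Mn1null and 9.18, 9.11 and 9.19 in Mn1wt, a difference of -4.32. The other 4 probe sets differed in size. On 1438945_x_at and 1438650_x_at the differences were -4.60 and -4.15, with Mn1null means of 3.61 and 3.66 under the mark of low signal, so these differences are compressed. On 1438973_x_at and 1415801_at the differences were smaller, -1.94 and -1.66. The spread on 1438973_x_at was the widest among all 27 probe sets, with Mn1null values of 5.36, 5.49 and 4.03 against Mn1wt values of 6.64, 7.01 and 7.06. In bulk samples such as these, fewer cells with a transcript and less of it per cell cannot be told apart.

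The classical cadherins overlapped between the groups, Cdh1 above the mark of low signal and Cdh2 under it. Cdh1 read 5.30, 5.27 and 5.39 in Mn1null and 5.32, 5.28 and 5.57 in Mn1wt, a difference of -0.07 (-0.13 to 0.02 when single arrays were left out). Cdh2 read 3.43, 3.30 and 3.64 in Mn1null and 3.29, 3.44 and 3.67 in Mn1wt on 1449244_at, and both of its probe sets lay under the mark of low signal on every array. Overlap with 3 arrays a group, and for Cdh2 also at low signal, does not show that these genes did not differ.

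**Figure D2:**
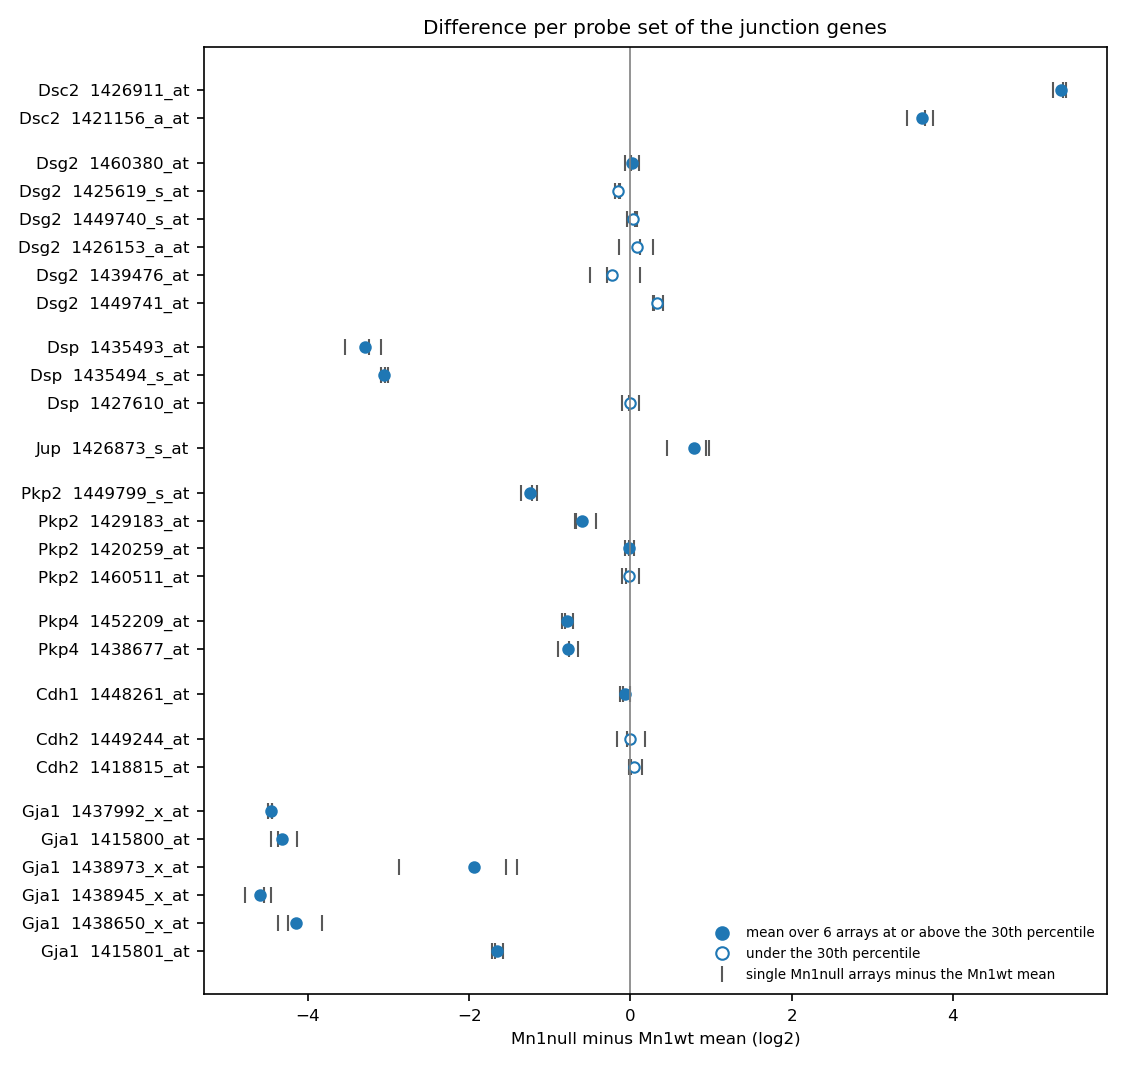
Difference between the Mn1null and Mn1wt means on the log2 scale (horizontal axis) for each of the 27 probe sets; ticks are single Mn1null arrays minus the Mn1wt mean, and open circles mark probe sets under the 30th percentile of signal. Differences reach 5.34 for Dsc2 and -4.60 for Gja1, and the probe sets of Dsg2, Cdh1 and Cdh2 lie within 0.33 of 0.

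Sequence upstream of the genes is shown for the 3 members that were lower in Mn1null on more than 1 probe set and whose RefSeq promoter window (GRCm38.p6) begins at the annotated gene start: Dsp, Pkp4 and Gja1. Windows matched 4 of the 9 genes, and those of Jup and a second one of Pkp4, which do not begin at the gene start, are not shown. Each printed run holds the 250 bases before the start, on the plus strand. Capitals mark matches, on either strand, to the motifs searched: the E-box CACCTG bound by ZEB and SNAI repressors, the AP-1 element TGANTCA, the GC box GGGCGG, the CCAAT box, the TATA box TATAAA and the MEIS motif TGACAG.
Dsp, chr13:38151044-38151293: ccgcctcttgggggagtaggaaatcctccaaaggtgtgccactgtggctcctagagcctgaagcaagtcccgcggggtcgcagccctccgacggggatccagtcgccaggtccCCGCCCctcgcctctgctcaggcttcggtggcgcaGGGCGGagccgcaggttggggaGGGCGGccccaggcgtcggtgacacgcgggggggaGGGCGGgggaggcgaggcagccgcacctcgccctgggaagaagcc
Pkp4, chr2:59160600-59160849: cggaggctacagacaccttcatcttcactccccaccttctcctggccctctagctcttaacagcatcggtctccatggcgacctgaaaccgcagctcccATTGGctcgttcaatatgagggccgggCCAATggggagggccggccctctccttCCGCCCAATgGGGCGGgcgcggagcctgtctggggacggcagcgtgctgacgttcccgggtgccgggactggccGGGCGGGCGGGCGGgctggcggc
Gja1, chr10:56377050-56377299: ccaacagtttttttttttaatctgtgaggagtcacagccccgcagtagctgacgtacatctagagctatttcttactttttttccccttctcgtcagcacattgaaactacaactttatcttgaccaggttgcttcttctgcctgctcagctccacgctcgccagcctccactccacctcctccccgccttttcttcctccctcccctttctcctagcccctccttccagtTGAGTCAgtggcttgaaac

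The 3 windows differed in composition. G and C made up 72.4% of the Dsp window and 68.4% of the Pkp4 window, against a median of 52.4% over 32851 windows of the same length, and the Gja1 window lay just under that median. CG pairs numbered 22 for Dsp, 21 for Pkp4 and 6 for Gja1, with a median of 6. The Gja1 window held 1 match, an AP-1 element whose first base lies 19 bases before the start, and 6.75% of all windows hold such a match. Dsp held 4 GC boxes and Pkp4 held 5, a motif found in 32.7% of all windows. Those of Pkp4 at 23, 19 and 15 bases before the start overlap in 1 run. Pkp4 also held 3 CCAAT boxes (33.8% of all windows), of which 1 overlaps a GC box. The E-box (17.2% of all windows), the TATA box (12.4%) and the MEIS motif (15.9%) had no match in these 3 windows. In the windows not shown, the second one of Pkp4 held an E-box whose first base lies 47 bases before its start, and that of Jup held a MEIS match at 6 bases, 2 GC boxes and 2 CCAAT boxes. A match is a stretch of letters and does not show that a factor binds there.

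Other genes of the same structures were read from 6 lists that hold none of the 9 genes. In all 111 of the listed genes had a probe set of their own and 12 had none, and each gene was read by the probe set with the highest mean over the 6 arrays. By limma's test with Benjamini-Hochberg adjustment over all 45037 probe sets, 8 of the 111 were higher in Mn1null, against 16.7% of all genes, and 12 were lower, against 18.0% of all genes. Together 18.0% of the 111 were called, against 34.7% of all genes. For 33 of the 111 both group means lay under the mark of low signal. The median difference of the 111 was -0.0096.

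**Figure D3:**
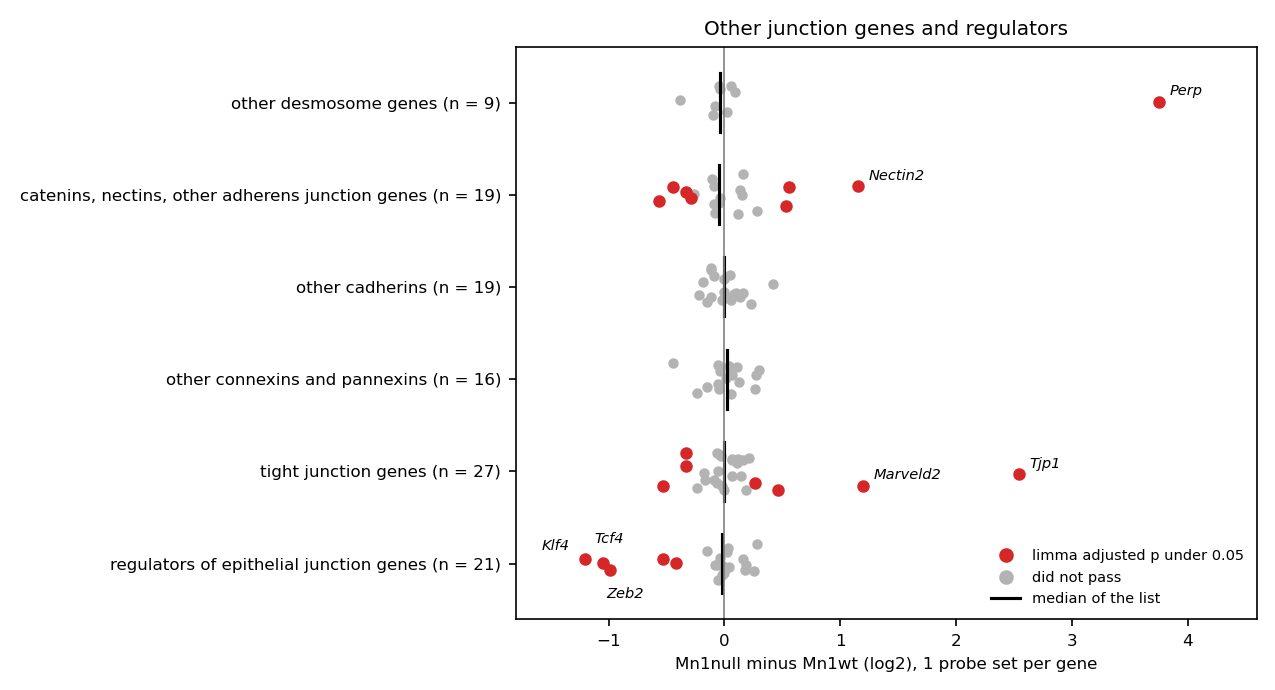
Difference between Mn1null and Mn1wt on the log2 scale (horizontal axis) for 111 other junction genes and regulators, in 6 lists; red points had a limma adjusted p under 0.05, grey points did not, and black bars are list medians. The list medians lie close to 0, while Perp and Tjp1 stand far to the right and Klf4, Tcf4 and Zeb2 to the left.

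Among other desmosome genes, Perp was the 1 that passed the test. Perp encodes a small membrane protein of desmosomes in stratified epithelia and is also a target of p53. It read 10.89, 10.95 and 10.78 in Mn1null, against 7.13, 7.0 and 7.24 in Mn1wt. The groups lay far apart, with a rise of 3.75 ± 0.083 (SE), or 13.5-fold (limma adjusted p = 1.82e-07). Of the 9 desmosome genes read, 1 rose, 0 fell by limma (0 also at an unadjusted p under 0.05) and 8 did not reach the threshold. Their median was -0.04, and 11.1% of the list was called, against 34.7% of all genes. The next 3 genes were named after their values were seen, as relatives of Dsc2 and Pkp2. Dsc3 averaged 4.33 in Mn1null and 4.24 in Mn1wt, and Pkp1 averaged 3.85 in Mn1null and 3.79 in Mn1wt. Dsc1 was under the mark of low signal on both of its probe sets, of which the dimmer gave a difference of 0.88 (adjusted p = 3.77e-04) and the brighter -0.05 (adjusted p = 0.881).

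Among 19 adherens junction genes outside the cadherins, 3 rose and 4 fell, 12 did not reach the threshold, and the median was -0.04. Together 36.8% of this list was called, near the 34.7% of all genes. Nectin2, an immunoglobulin-like adhesion molecule, rose to 6.95, 6.85 and 7.0 in Mn1null, against 5.79, 5.77 and 5.78 in Mn1wt, by 1.16 ± 0.063 (SE; limma adjusted p = 1.25e-05), and its second probe set gave 0.62 (adjusted p = 0.00366). Pvr, the nectin-like poliovirus receptor, rose by 0.56 ± 0.079 (adjusted p = 0.00136), and Ssx2ip, which binds the nectin partner afadin, by 0.53 ± 0.071 (adjusted p = 0.00107). Of the other 6 probe sets of Pvr 4 passed in the same direction, and the other 3 of Ssx2ip gave 0.82 (adjusted p = 9.36e-05), 0.06 and 0.01, of which the last 2 did not pass. The other nectins overlapped between the groups and did not pass on their brightest probe sets, with differences of -0.04 for Nectin1, 0.16 for Nectin3 and 0.11 for Nectin4. A dimmer probe set of Nectin1 gave 0.27 (adjusted p = 0.048). These 3 were named after their values were seen.

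The 4 genes that fell were Vcl, Afdn, Ctnnal1 and Ctnnb1. Vcl, which encodes the actin linker vinculin, read 9.69, 9.65 and 9.66 in Mn1null, against 10.20, 10.23 and 10.26 in Mn1wt, and fell by 0.56 on the log2 scale (limma adjusted p = 2.59e-04). Its dimmer probe set gave 0.01 (adjusted p = 0.972), and the mean of both gave -0.28 (adjusted p = 0.0302). Afdn, which encodes afadin, the protein that anchors nectins to actin, fell by 0.44 (adjusted p = 0.00846), with 0.09 (adjusted p = 0.488) on its dimmer probe set. Ctnnal1, an alpha-catenin relative, differed by -0.33 (adjusted p = 0.037), a call lost without Mn1null replicate 2 (0.115) or 3 (0.111) and without Mn1wt replicate 2 (0.0881) or 3 (0.105). The other probe set of Ctnnal1, whose name has no tag for shared sequence, gave -0.06 (adjusted p = 0.728). Ctnnb1, which encodes beta-catenin, the partner of classical cadherin tails, was named after its values were seen. It averaged 12.37 ± 0.05 in Mn1null and 12.65 ± 0.04 in Mn1wt (SD, n = 3 each), a difference of -0.28 (adjusted p = 0.00973), and its other probe sets gave -0.23 (adjusted p = 0.0511) and -0.14 (adjusted p = 0.16).

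No other cadherin and no other connexin or pannexin passed the test, against 34.7% of all genes. Of 19 other cadherins read, 0 rose and 0 fell by limma, while 1 was higher and 1 lower at an unadjusted p under 0.05, and both means of 9 lay under the mark of low signal. The genes named here were chosen after their values were seen. Cdh22 had the largest difference among the other cadherins, 0.42 (adjusted p = 0.101), and Cdh5, the vascular cadherin, averaged 4.20 in Mn1null and 4.38 in Mn1wt. Of 16 other connexins and pannexins read, 0 rose and 0 fell by limma, with 2 higher and 2 lower at an unadjusted p under 0.05. Both means of 6 of these 16 lay under the mark of low signal. Under the median of all probe sets lay both means of 13 of the 16, and of 15 of the 19 cadherins. At such signal a lack of calls does not show that these genes did not differ. Gjc1, the gene of Cx45, averaged 5.36 in Mn1null and 5.06 in Mn1wt (difference 0.30, adjusted p = 0.0502), and Panx1, which encodes a channel protein related in shape to connexins, averaged 8.87 in Mn1null and 8.83 in Mn1wt (adjusted p = 0.695). Other settings called at most 1 gene of either list in each direction.

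Tight junction genes included the second large rise among the related genes. Tjp1, which encodes the scaffold protein ZO-1, read 10.47, 10.47 and 10.34 in Mn1null, against 7.87, 7.85 and 7.90 in Mn1wt. The groups lay far apart, with a rise of 2.55 ± 0.064 (SE), or 5.85-fold (limma adjusted p = 3.08e-07). ZO-1 is also known to bind Cx43, the product of Gja1. Marveld2, which encodes tricellulin of the corners where cells meet, rose to 7.51, 7.44 and 7.67 in Mn1null, against 6.27, 6.32 and 6.43 in Mn1wt, by 1.20 ± 0.082 (adjusted p = 4.01e-05). F11r, the gene of the junctional adhesion molecule JAM-A that leukocytes and platelets also carry, rose by 0.46 ± 0.068 (adjusted p = 0.0017), with 0.01 (adjusted p = 0.909) on its dimmer probe set.

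The claudins, the strand-forming proteins of tight junctions, that passed differed by at most 0.53. Among 27 tight junction genes read, 4 rose and 3 fell, 20 did not reach the threshold, and the median was 0.00057. Together 25.9% of this list was called, against 34.7% of all genes. Cldn3 differed by -0.33 (limma adjusted p = 0.0305), Cldn23 by -0.34 (0.0344) and Cldn11 by -0.53 (0.0138), the last 2 with both means under the mark of low signal. The call of Cldn3 was lost without any 1 of the arrays other than Mn1null replicate 2 (adjusted p 0.022 to 0.0948 over the 6 arrays left out in turn). Cldn23 was lost without Mn1null replicate 1 or 2 or Mn1wt replicate 2 or 3 (0.0251 to 0.104), and Cldn11 without Mn1null replicate 3 (adjusted p = 0.0531). Cldn1, named after its values were seen, differed by 0.27 (adjusted p = 0.0459) and was lost without any 1 of the arrays other than Mn1wt replicate 2 (0.0182 to 0.139). The mean of all probe sets of Cldn1 gave 0.12 (adjusted p = 0.128).

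Among regulators of epithelial junction genes, 5 of the 21 read fell by limma and 0 rose (1 higher at an unadjusted p under 0.05, and up to 2 called higher under other settings), with a median of -0.02. The 5 are 23.8% of the list, near the 18.0% of all genes called lower. Zeb2, a repressor of Cdh1 in epithelial cells, read 7.09, 6.97 and 6.91 in Mn1null, against 7.92, 7.79 and 8.21 in Mn1wt, and fell by 0.99 on the log2 scale (adjusted p = 5.22e-04). Its other 4 probe sets gave between -0.95 and -0.07, and 2 of them passed. Tcf4, an E protein that binds E-boxes, fell by 1.05 on the log2 scale (adjusted p = 2.99e-05), and 4 of its other 5 probe sets passed in the same direction.

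Klf4, a transcription factor of epithelia and monocytes, read 3.86, 3.84 and 4.47 in Mn1null, against 5.51, 5.06 and 5.21 in Mn1wt, and fell by 1.20 on the log2 scale (limma adjusted p = 0.00228). Its Mn1null mean of 4.06 lay just under the mark of low signal, so the difference is compressed. The mean of the 2 probe sets of Klf4 gave -1.54 (adjusted p = 6.46e-06). Cdh1, for which Zeb2 and Tcf4 are known repressors in epithelia, overlapped between the groups as given above. The epithelial regulators Grhl1 (-0.42, adjusted p = 0.0213) and Esrp2 (-0.53, adjusted p = 0.00855), named after their values were seen, also passed downward. Grhl1 was lost without Mn1null replicate 2 (0.0737) or 3 (0.0719) and without Mn1wt replicate 2 (0.0561), and Esrp2 on its second probe set (-0.17, adjusted p = 0.305).

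**Figure D4:**
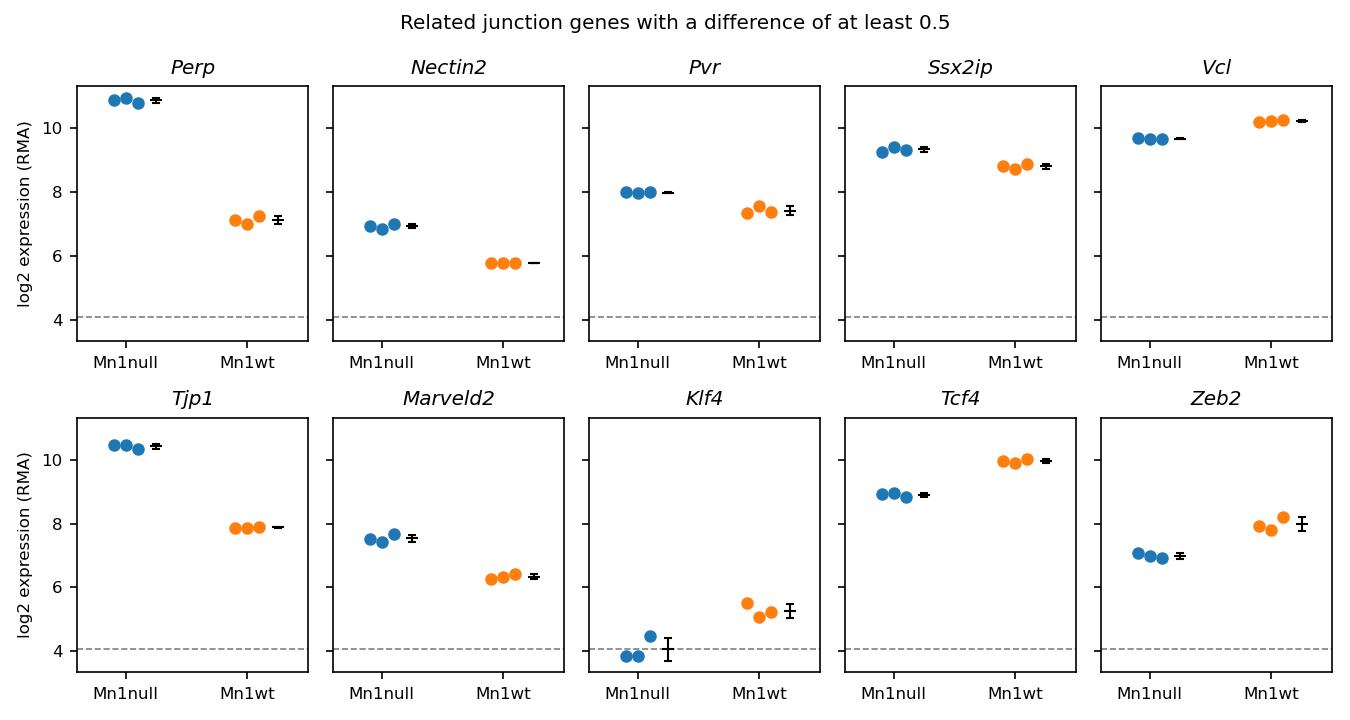
Log2 expression (vertical axis) of 10 genes of the related lists in the 3 Mn1null arrays (left, blue) and the 3 Mn1wt arrays (right, orange), with the mean and SD beside them; shown are genes named by the rule with a difference of at least 0.5 and a mean above the 30th percentile (dashed line) in either group. Perp and Tjp1 lie higher in Mn1null and Klf4, Tcf4, Zeb2 and Vcl lie lower, without overlap.

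Marker lists of several cell types were read on the same arrays. Of all genes, 34.7% were called, 16.7% higher and 18.0% lower. Of the haematopoietic list 44.4% was called, of the epithelial list 21.4% and of the endothelial list 12.5%. Of 9 haematopoietic markers 4 rose and 0 fell by limma (1 lower at an unadjusted p under 0.05), with array means of 11.67 to 11.70 in Mn1null and 11.45 to 11.49 in Mn1wt. Cd53 rose by 0.71 and Laptm5 by 0.45 (limma adjusted p = 1.97e-04 and 0.00103). Of 14 epithelial markers, 1 rose and 2 fell, with array means of 4.8 to 4.84 in Mn1null and 4.90 to 4.99 in Mn1wt, and 10 of the 14 lay under the median of all probe sets in both groups. The median difference of the 14 was -0.07. Krt18, an intermediate filament keratin that can anchor at desmosomes, averaged 3.57 in Mn1null and 5.15 in Mn1wt and fell by 1.58 on the log2 scale (limma adjusted p = 3.58e-05). Its Mn1null mean lay under the mark of low signal, so the difference is compressed. The other epithelial marker that fell was Cldn3 (-0.33), which is also in the tight junction list and is given above. The largest positive difference among the 14 was 0.28. Dsp was lower too, while 11 of the 14 epithelial markers did not reach the threshold. Of 8 cardiac muscle markers 0 passed by limma (0 at an unadjusted p under 0.05), and of 8 endothelial markers 1 rose and 0 fell (1 lower at an unadjusted p under 0.05).

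Single genes of the stromal and mast cell lists reached larger differences. Of the stromal list 27.3% was called, of the mast cell list 70.0% and of the dendritic cell list 57.1%, against 34.7% of all genes. Of 11 fibroblast and stromal markers 2 rose and 1 fell, with array means of 5.31 to 5.38 in Mn1null and 4.95 to 5.0 in Mn1wt. The median difference of this list was 0.05, so the gap between the array means was not shared by most of its genes. Collagen genes stayed low (Col1a1, named after its values were seen, averaged 4.34 in Mn1null and 4.40 in Mn1wt). Thy1 rose by 2.34 (limma adjusted p = 4.75e-07). Pdgfrb, a growth factor receptor of stromal cells, rose by 1.76 on its brighter probe set and by 6.42 on its dimmer one (9.56 ± 0.07 in Mn1null against 3.14 ± 0.16 in Mn1wt, SD, n = 3 each; adjusted p = 2.55e-08). Of 10 mast cell and basophil markers 7 rose and 0 fell by limma (0 lower at an unadjusted p under 0.05), with array means of 7.94 to 7.98 in Mn1null and 6.51 to 6.56 in Mn1wt. Of 7 Langerhans and dendritic cell markers 2 rose and 2 fell, with array means of 5.43 to 5.52 in Mn1null and 5.58 to 5.67 in Mn1wt. Median differences were 0.91 for the mast cell list and -0.06 for the dendritic cell list. The part of these cell types in the differences of the junction genes was not tested.

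Genes with the profiles nearest to those of the 4 junction genes that differed by at least 1 were sought by the distance between the 6 values, each centred on its own mean. For Dsc2 the nearest of 18192 genes were Dmrta2 (distance 0.19, difference 5.22), Cdkn2a (0.66, difference 4.88) and Akr1c12 (0.72, difference 4.83). For Gja1 they were Tmem243 (distance 0.32, difference -4.54), Arap2 (0.35, difference -4.31) and Mmp8 (0.38, difference -4.53). For Dsp they were Cybb, a subunit gene of the phagocyte oxidase (distance 0.36, difference -3.34), Tmem41a (0.38, difference -3.52) and Nlrc5 (0.38, difference -3.33). The nearest genes of Pkp2 were Pogk, Prag1 and Haspin (distances 0.16 to 0.18). Within a distance of 1 lay 8 genes for Dsc2, 18 for Gja1, 36 for Dsp and 1300 for Pkp2, so profiles as extreme as that of Dsc2 were few. With 2 groups of 3 arrays, this likeness reflects mainly the size of the difference.

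As to the arrays themselves, Mn1 was read by 1 probe set, at 4.13 ± 0.07 in Mn1null and 4.35 ± 0.20 in Mn1wt (SD, n = 3 each; limma adjusted p = 0.182), close to the mark of low signal, and since its place relative to the deleted part is unknown here, it checks nothing. Bacterial labelling control transcripts differed between the groups: their 8 probe sets at the 5′ end averaged 6.47 ± 0.059 in Mn1null and 7.32 ± 0.10 in Mn1wt, a difference of -0.85, and those at the 3′ end differed by -0.30. The groups did not overlap on 8 of the 8 probe sets at the 5′ end and on 6 of the 8 at the 3′ end. The 18 hybridisation control probe sets differed by -0.09 on average, and 4 of them did not overlap. The part of this in the differences given above was not tested.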

How the data were processed

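RNA of 6 samples was hybridised to 6 one-colour Affymetrix arrays. The deposited log2 values per probe set come from the authors' use of RMA (per the submitters' processing notes), a method that corrects background, equalises the arrays' distributions and summarises the probes of a set, so that differences in total RNA are lost and low signals are compressed. Array medians lay between 5.16 and 5.22. Correlations between arrays were 0.997 to 0.998 inside a group and 0.981 to 0.983 across groups. Precision is limited by how few arrays there are.

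Of 45101 probe sets, 64 controls were left out. The platform annotation named 1 gene for 34945 of the other 45037, several for 932 and none for 9160. Entrez identifiers of 34741 were found in RefSeq (GRCm38.p6), which changed 0 symbols. Groups were compared per probe set with limma 3.58.1 (lmFit, then eBayes) under R 4.3.3, 2-sided, with Benjamini-Hochberg adjustment over the 45037 probe sets, a threshold of 0.05 and no filter. The steps were tested on simulated data. Every adjusted p is from this limma model. The share of all genes at an unadjusted p under 0.05 was not computed, so the counts at that cut have no share beside them.

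The 9 genes and the lists were chosen with earlier results of these data known. Named were all 9 genes, up to 3 genes per direction and list past the threshold without overlap, by size of difference, and the 3 nearest profiles. Markers of large difference were named from the haematopoietic, epithelial and stromal lists alone. Genes named otherwise are marked as chosen after their values were seen. The replicate numbers were not taken to pair the arrays. Alternatives were the replicate block, filters at the 30th and 50th percentiles, quantile normalization, median centring, a trend with robust eBayes, array weights, other rules for probe sets, 1 probe set a gene, leaving out each array, and a threshold of 0.01.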

Additional observations from a re-analysis of the deposited data

How the results depend on the processing

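The differences of the 9 junction genes moved by less than the spread between replicates under quantile normalization, median centring and each array left out (for Dsc2 5.2 to 5.41, Gja1 -4.49 to -4.44, Dsp -3.39 to -3.17, Pkp2 -1.32 to -1.12 and Pkp4 -0.84 to -0.75). Averaging all probe sets of a gene gave 4.48 for Dsc2, -2.12 for Dsp, -0.47 for Pkp2 and -3.52 for Gja1. These means take in the probe sets with smaller differences given above. With probe sets designed for 1 transcript Pkp2 gave -0.60 and Gja1 -4.32, and Jup has none. Of the related genes, 8 were called higher (7 to 10 over the alternatives) and 12 lower (8 to 14 at the same threshold). At a threshold of 0.01, 7 were called lower. The percentile filters read fewer of the 111 genes. At the 50th percentile 9 were higher and 9 lower of 41 read, and at the 30th 9 and 11 of 75. A larger share was thus called there than the 18.0% of all 111. The share of all genes called under these filters was not computed. With the replicate block 8 were called higher and 11 lower, of which 7 and 10 were among those called without it. Deviations from group means of same-numbered arrays correlated at -0.036, 0.078 and 0.023, and 0 of the 3 Mn1null arrays correlated best with their own number. No strong shared part of same-numbered arrays was seen, and 3 arrays a group cannot exclude a weaker one. Of the 20 called genes, 13 passed in every alternative at 0.05 that read them. The 7 others (Ctnnal1, Cldn1, Cldn3, Cldn11, Cldn23, Grhl1 and Esrp2) were each lost in at least 1, and the cause was not tested. With 3 arrays a group and RMA values alone, differences among probe sets near the mark of low signal cannot be resolved.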
